A study of Mus musculus with 4 samples.

Results

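The insulin-like growth factor (IGF) axis was followed in kidney RNA through 10 genes, taken by symbol from a list of this family: the ligands Igf1 and Igf2, the receptor Igf1r and the binding proteins Igfbp1 to Igfbp7. All 10 were found among the 38924 genes of the deposited tables, and all 10 had enough reads to enter the fit over 16334 genes. The immune complex group (2 libraries) came from female CB-17 SCID mice, on a Balb/c background, that received IgG-Gd-IgA1 immune complexes, made of IgG bound to galactose-deficient IgA1 (Gd-IgA1), the antigen of the autoantibodies of IgA nephropathy. The saline group (2 libraries) came from female CB-17 SCID mice that received saline. Both groups had 3 injections by tail vein over 7 days, and kidneys of the immune complex group were taken 1 day after the last injection. The interval for the saline group is not stated in the labels used here. SCID mice lack functional B and T cells, so every group shares that defect, and the complexes were given ready made. The series title names a passive mouse model and asks about IgG autoantibodies in IgA nephropathy. The libraries compare kidney RNA after the whole complexes with that after saline only. An effect of IgG therefore cannot be told apart from that of Gd-IgA1 or of the complex. The labels do not say that each library came from its own animal, so the spread between libraries may be technical.

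IGF1 and IGF2 are small secreted hormones that signal through the tyrosine kinase receptor encoded by Igf1r, which promotes growth and survival. In blood and tissue most IGF is held by binding proteins, which lengthen its life in the circulation and decide how much reaches the receptor. Proteases such as PAPP-A cut some binding proteins and free the ligand. In the kidney the axis is known for hypertrophy of the nephron, and the binding proteins are made by different cells, among them endothelial cells, podocytes and tubule cells.

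The family was proposed with the contrast of immune complex over saline already known, in which Igfbp2 stood out. Differences of the 10 genes in that contrast are therefore given as descriptions with a standard error (SE). Counts of calls among them stand only beside the share of all genes called and support nothing. Depth was 19675879 to 22791960 reads assigned to genes per library. Reads in introns were 9.96% and 7.39% in the immune complex libraries and 8.29% and 8.90% in the saline libraries. Summed markers of neighbouring tissue and of kidney regions differed between libraries. The 8 white adipocyte markers summed to 1439 and 1101 CPM (reads scaled to library size) in immune complex 1 and 2, against 56.6 and 457.4 CPM in saline 1 and 2. The 4 inner medulla markers summed to 78.9 and 262.1 CPM in immune complex 1 and 2, against 599.4 and 170.0 CPM in saline 1 and 2. Defining kidney genes were read in every library, with the proximal tubule receptor gene Lrp2 at 1705 and 2436 CPM in immune complex and 1890 and 2135 CPM in saline libraries.

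The promoters of Igfbp2 and Igfbp1 are shown because these genes lay on opposite sides of the contrast. Each runs 300 bases in the direction of transcription, from RefSeq on GRCm38.p6. The Igfbp2 window is chr1:72824230-72824529 on the plus strand and the Igfbp1 window is chr11:7197537-7197836 on the plus strand. Capitals mark matches, on either strand, to the GC box GGGCGG, the insulin response core CAAAACA, the FoxO consensus GTAAACA or the TATA box TATAAA.
Igfbp2: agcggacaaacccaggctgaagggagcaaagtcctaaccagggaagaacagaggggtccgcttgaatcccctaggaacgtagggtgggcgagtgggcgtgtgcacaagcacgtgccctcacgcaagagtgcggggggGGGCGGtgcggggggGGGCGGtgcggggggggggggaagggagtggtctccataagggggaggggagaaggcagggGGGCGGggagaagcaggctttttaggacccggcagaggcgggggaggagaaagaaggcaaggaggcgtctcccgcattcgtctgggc
Igfbp1: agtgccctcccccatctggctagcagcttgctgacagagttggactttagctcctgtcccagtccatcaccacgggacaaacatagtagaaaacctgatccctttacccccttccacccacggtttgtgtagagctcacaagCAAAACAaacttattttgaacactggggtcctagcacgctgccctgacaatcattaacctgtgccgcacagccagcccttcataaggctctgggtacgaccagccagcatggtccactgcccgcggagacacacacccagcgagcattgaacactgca
RefSeq gives a further Igfbp2 start, whose window chr1:72825137-72825436 is not printed and held 0 GC boxes at a GC content of 57.3%. The printed Igfbp2 window held 3 GC boxes, a motif found in 35.7% of the 32851 promoters of the same length. Among the other members, the Igfbp7 window held 4 and the Igf1r window 2, while those of Igfbp5 and Igfbp6 held 0. The Igfbp1 window held 1 insulin response core, found in 6.28% of them. Neither window held the letters of the TATA box (13.6% of promoters) or of the FoxO consensus (3.65%). The GC content of the printed windows was 67.0% for Igfbp2 and 54.3% for Igfbp1, against a median of 52.7% over all promoters. These are matches of letters and were not tested for binding of any factor.

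Levels of different genes were compared as RPKM, reads in exons scaled by exon length and library total. Igfbp7 was the highest of the 10 genes in every library, at 1197 and 980 RPKM in immune complex 1 and 2 and at 1443 and 1276 RPKM in saline 1 and 2. It stood 31st in both immune complex libraries, and 26th and 29th in saline 1 and 2, among all listed genes. Igfbp4 followed at 213.9 and 134.7 RPKM in immune complex and 160.1 and 151.9 RPKM in saline libraries. The range of Igfbp5 reached into that of Igfbp4, with 59.6 and 63.5 RPKM in immune complex and 160.3 and 77.6 RPKM in saline libraries. Igfbp3 stood apart from its neighbours in this order, between 28.8 and 41.1 RPKM over the 4 libraries.

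The receptor and the remaining genes were lower. Igf1r ranged from 9.68 to 14.0 RPKM and Igfbp1 from 6.93 to 14.2 RPKM over the 4 libraries, and these ranges overlapped. Igf1 stood between 0.945 and 1.27 RPKM, within the range of Igfbp6, which ran from 0.773 to 3.57 RPKM. Igf2, a fetal growth factor that is largely silenced in mouse tissues after birth, was the lowest of the 10 genes in every library, between 0.193 and 0.484 RPKM. The order of Igfbp2 differed between groups, since it stood 9th of the 10 in both immune complex libraries and 6th and 7th in saline 1 and 2. The gene model of Igf1r in the files ends 6888 bases before that of GENCODE M21, so reads beyond that end are not part of its value.

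**Figure D1:**
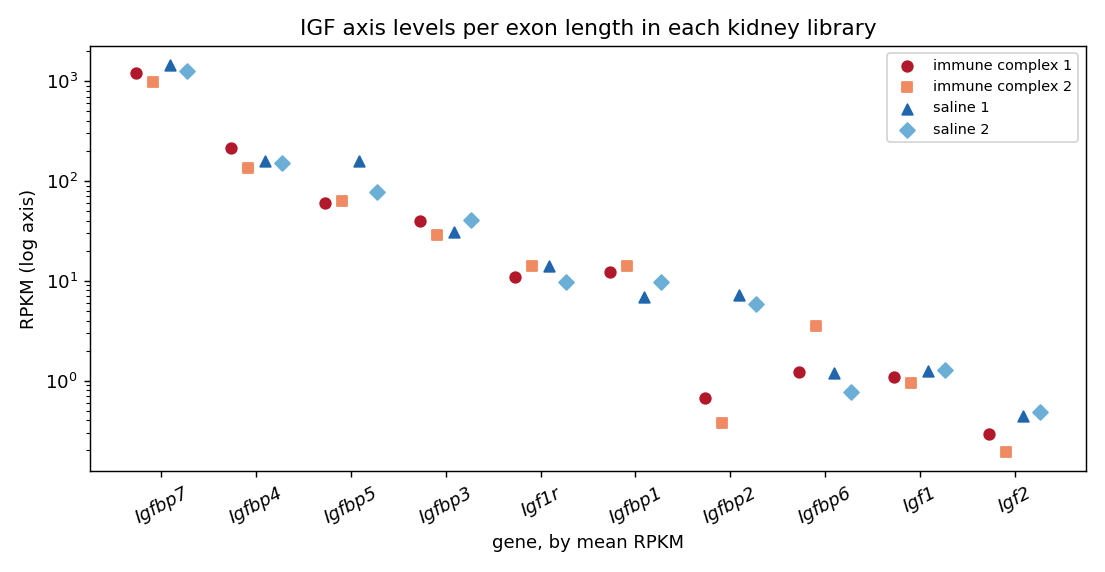
RPKM (log axis) of each IGF axis gene in the 2 immune complex libraries (circles and squares) and the 2 saline libraries (triangles and diamonds), 1 point per library, genes ordered by mean RPKM. Igfbp7 lies near 1000 RPKM in all 4 libraries, Igf2 lies at or below 0.484 RPKM, and Igfbp2 is the gene whose 2 pairs of points lie farthest apart.

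Summed over the 7 binding proteins, the level was 1525 and 1225 RPKM in immune complex 1 and 2, against 1809 and 1563 RPKM in saline 1 and 2. Igfbp7 made up 78.5% and 80.0% of that sum in immune complex libraries and 79.7% and 81.6% in saline libraries. Igfbp4 made up 14.0% and 11.0% in immune complex and 8.85% and 9.72% in saline libraries. Igfbp2 made up 0.0436% and 0.0306% of the sum in immune complex libraries, against 0.400% and 0.372% in saline libraries. Igfbp2 was thus under 1% of the summed level in every library.

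CPM values use all reads of a gene, scaled by the trimmed mean of M values (TMM), and each difference is log2 of immune complex over saline from edgeR's quasi-likelihood fit. At an adjusted p of 0.05 edgeR called 0 of the 10 genes, and it called 0% of all 16334 genes. At an unadjusted p under 0.05 there were 3 of 10, beside 4.59% of all genes. DESeq2 called 1 of 10, Igfbp2, beside 0.544% of all genes with an adjusted p, and limma-voom called 0 of 10 and 0% of all genes. Igfbp2 was also the 1 gene of 10 that edgeR called with the replicate number as a block, beside 0.337% of all genes, and without a filter on low counts 0 of 10 were called, beside 0.00795%. Leaving out saline replicate 1 gave a call for Igfbp2 alone among the 10, beside 0.276% of all genes, and leaving out saline replicate 2 gave 2 of 10, beside 1.65%. The authors' deposited table calls 1 of 10, also Igfbp2, beside 0.496% of its 16128 genes. The groups did not overlap for 7 of the 10 genes, 2 of them higher and 5 lower in immune complex kidneys, beside 30.0% of all tested genes. Since the family was chosen with this contrast known, nothing is read from these counts.

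**Figure D2:**
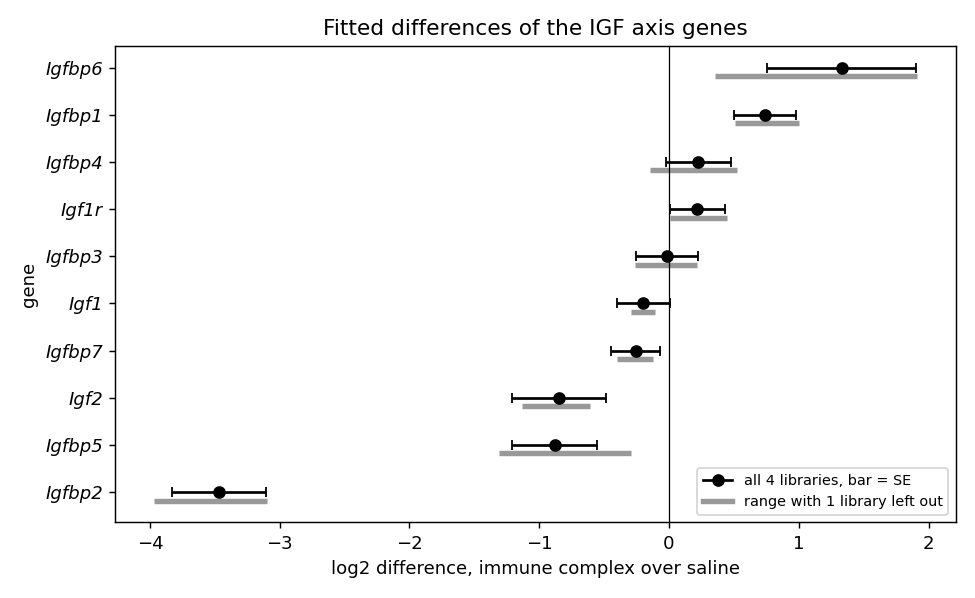
Log2 difference of each IGF axis gene, immune complex over saline, from the fit over all genes (points, with SE as bars, 2 libraries in each group) and the range when 1 library was left out (grey bars). Igfbp2 lies at -3.47 and Igfbp6 at 1.33, and the grey bars of Igfbp3 and Igfbp4 cross 0.

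Both ligands had negative fitted differences. Igf1, which encodes the main mediator of growth hormone, stood at 11.7 and 10.3 CPM in immune complex 1 and 2 and at 12.4 and 12.8 CPM in saline 1 and 2. The groups were apart by a narrow margin, with a log2 difference of -0.20 ± 0.21 (SE). It was -0.11 when immune complex replicate 2 was left out and -0.29 when immune complex replicate 1 was. Igf1 overlaps Igf1os on the other strand, and whether counting used strand is not given in the sources read. Igf2 had 38 and 25 reads in immune complex libraries and 50 and 58 reads in saline libraries. That gave 1.70 and 1.18 CPM in immune complex libraries, against 2.46 and 2.74 CPM in saline libraries, and a log2 difference of -0.85 ± 0.36. At such counts the exact Poisson 95% intervals, which cover counting error only, ran from 1.20 to 2.34 CPM in immune complex 1 and from 1.83 to 3.24 CPM in saline 1, so these libraries overlap within counting error. In immune complex 2 the interval ran from 0.765 to 1.74 CPM and in saline 2 from 2.08 to 3.55 CPM, without overlap. Igf2 overlaps Gm49394 and Mir483 on the same strand and Igf2os on the other strand, so its reads cannot be fully told apart from theirs.

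The receptor gene Igf1r overlapped between groups, with 59.3 and 71.5 CPM in immune complex libraries and 64.4 and 48.0 CPM in saline libraries. Its log2 difference of 0.22 ± 0.21 became 0.01 when saline replicate 2 was left out and 0.45 when saline replicate 1 was. Reads in introns were 14.9% and 9.85% of Igf1r reads in immune complex libraries and 5.96% and 10.3% in saline libraries, the highest share among the 10 genes in each library. Exon reads alone gave 0.17.

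Igfbp2 was the gene with the largest difference in the family. Its product binds both IGFs and carries an integrin-binding motif. It had 31 and 16 reads in immune complex 1 and 2, against 266 and 229 reads in saline 1 and 2. On the CPM scale it stood at 1.39 and 0.756 in immune complex libraries and at 13.1 and 10.8 in saline libraries. Every immune complex value lay far below every saline value, and the exact Poisson intervals, up to 1.97 CPM in immune complex and down to 9.47 CPM in saline libraries, did not meet.

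The log2 difference of Igfbp2 was -3.47 ± 0.36, an 11.1-fold lower level in immune complex kidneys. It lay between -3.97 and -3.10 when single libraries were left out. In the authors' deposited table the log2 fold change of Igfbp2 is 1.71, coded as saline over immune complex, with a standard error of 0.213. DESeq2 run here gave -3.49 for immune complex over saline, although the counts of the 10 genes are identical in both sources. How the authors' smaller value was computed is not stated in the sources read, so its size is not a like measure. Reads across exon junctions, which come from spliced RNA, numbered 2 and 1 in immune complex and 35 and 23 in saline libraries. In bulk tissue, fewer cells that express a gene and less RNA per cell cannot be told apart, here or for the other genes.

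Marker lists of other cell types also differed between the libraries, not all in the pattern of Igfbp2. Of the 4 mesothelium markers, 3 were tested and 2 had negative differences, and the list summed to 4.57 and 9.69 CPM in immune complex and 26.1 and 29.5 CPM in saline libraries. Upk1b is in both this list and that of urothelium. Within the mesothelium list Upk3b, a surface plaque protein of mesothelium and urothelium, stood at 1.43 and 3.54 CPM in immune complex and 23.8 and 13.6 CPM in saline libraries. Msln, the mesothelin gene, stood at 0.493 and 2.32 CPM in immune complex and 0.935 and 0.993 CPM in saline libraries, and Lrrn4 at 0.269 and 0.756 CPM against 0.0984 and 0.237 CPM in saline libraries. Upk3b and Upk1b, the second at 2.37 and 3.07 CPM in immune complex and 1.28 and 14.7 CPM in saline libraries, made up most of the list sum in every library, while Msln and Lrrn4 had higher means in immune complex kidneys. No mesothelium marker was at 0 in any library. The part of mesothelial RNA in the Igfbp2 difference was not tested.

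The 6 urothelium markers all had negative fitted differences, whereas 51.9% of all tested genes were positive. None had its groups apart, beside 30.0% of all genes. They summed to 11.8 and 11.0 CPM in immune complex and 5.71 and 53.0 CPM in saline libraries. Saline 1 had the lowest urothelium sum and the highest Igfbp2 level of the 4 libraries, and the part of urothelial RNA in the Igfbp2 difference was not tested. White adipocyte markers ran the other way from Igfbp2. The groups were apart and higher in immune complex kidneys for all 8, beside 15.4% of all genes, with 4 of 8 at an unadjusted p under 0.05 and 0 called. Lep was at 0 reads in saline 1.

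By distance between centred log2 CPM profiles over the 4 libraries, the 5 genes nearest to Igfbp2 among 13036 candidates were Sptssb, Lrrc26, Psca, Scube2 and Gsdmc3. Sptssb, a small subunit of serine palmitoyltransferase, was the nearest at a distance of 0.504, with 1.61 and 1.46 CPM in immune complex and 22.0 and 16.6 CPM in saline libraries. Lrrc26, an auxiliary subunit of the BK potassium channel, stood at 0.224 and 0.0945 CPM in immune complex and 3.49 and 1.51 CPM in saline libraries, at a distance of 0.641. Psca, an epithelial surface protein, followed at 0.852, with 3.76 and 4.30 CPM in immune complex and 46.3 and 26.8 CPM in saline libraries. The distances of Scube2 and Gsdmc3 were 1.16 and 1.42. These profiles cover 4 libraries only, and the distance is a description with no test.

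Igfbp5 encodes a binding protein that attaches to extracellular matrix and can join ternary complexes with IGF. It stood at 366.4 and 391.3 CPM in immune complex libraries, against 932.4 and 462.8 CPM in saline libraries. The immune complex libraries lay close together and below both saline libraries, while saline 1 was 2.01 times as high as saline 2. The log2 difference of -0.88 ± 0.33 became -0.29 when saline replicate 1 was left out and -1.31 when saline replicate 2 was.

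The summed principal cell and inner medulla lists were also highest in saline 1. The 7 principal cell markers summed to 1002 and 654 CPM in immune complex and 2297 and 991.5 CPM in saline libraries. All 7 had negative fitted differences, whereas 51.9% of all tested genes were positive. The list holds Aqp2, the water channel gene, at 528.0 and 301.9 CPM in immune complex and 1704 and 544.3 CPM in saline libraries, whereas the sodium channel gene Scnn1b was highest in immune complex 1 (57.6 CPM, against 54.7 CPM in saline 1). All 4 inner medulla markers had negative fitted differences, 0 of them with the groups apart, beside 30.0% of all genes. The 7 endothelium markers summed to 446.5 and 399.0 CPM in immune complex and 567.4 and 437.6 CPM in saline libraries. Their groups were apart for 3, all lower in immune complex kidneys, beside 14.6% of all genes. None of the markers in these 3 lists was at 0 in any library. The part of these tissue shares in the Igfbp5 difference was not tested.

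Igfbp2 and Igfbp5 are neighbours on chromosome 1 of GRCm38. Igfbp2 spans chr1:72824503-72852474 on the plus strand and Igfbp5 spans chr1:72857932-72874884 on the minus strand, so they point toward each other across 5457 bases with 0 annotated genes between. The Igfbp2 level per Igfbp5 level, both in RPKM, was 1.12% and 0.590% in immune complex and 4.52% and 7.49% in saline libraries. Igfbp1 and Igfbp3 form a like pair on chromosome 11, at chr11:7197782-7202546 on the plus strand and chr11:7206086-7213923 on the minus strand, 3539 bases apart. Igfbp1 per Igfbp3 was 31.0% and 49.3% in immune complex and 22.4% and 23.5% in saline libraries. Igfbp2 per Igfbp5 was lower in both immune complex libraries than in both saline libraries, and Igfbp1 per Igfbp3 was higher. How often such ratios lie apart over all gene pairs was not computed, so nothing is read from them.

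Igfbp1 encodes a binding protein that insulin represses and that fasting and stress induce in liver, through the FoxO-responsive element in its promoter. It stood at 19.4 and 22.3 CPM in immune complex and 10.3 and 14.7 CPM in saline libraries. Both immune complex values lay above both saline values, with a log2 difference of 0.74 ± 0.24, a 1.67-fold higher level. It was 0.51 when saline replicate 1 was left out and remained positive whichever library was left out. The 6 proximal tubule markers summed to 10693 and 14816 CPM in immune complex and 10059 and 12167 CPM in saline libraries. The groups were apart for 1 of them, higher in immune complex kidneys, beside 15.4% of all genes, and none was at 0.

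Igfbp3 carries most IGF in blood as part of a ternary complex. It stood at 126.8 and 92.4 CPM in immune complex and 93.8 and 127.8 CPM in saline libraries, so the groups covered the same range. The log2 difference was -0.02 ± 0.24, and its sign depended on the library left out (-0.26 to 0.21). Igfbp4, the main substrate of PAPP-A, stood at 974.7 and 612.8 CPM in immune complex and 687.6 and 670.7 CPM in saline libraries. Immune complex 1 was high and immune complex 2 was the lowest of the 4, with a log2 difference of 0.22 ± 0.25 that turned to -0.15 without immune complex replicate 1. The 4 podocyte markers were likewise highest in immune complex 1 and summed to 482.9 and 362.8 CPM in immune complex and 374.9 and 356.8 CPM in saline libraries. Distal convoluted markers summed to 747.8 and 419.4 CPM in immune complex and 581.5 and 621.9 CPM in saline libraries. The smooth muscle and pericyte, white adipocyte and brown adipocyte sums were also highest in immune complex 1, whereas the inner medulla sum was lowest there. The part of these cell types in the Igfbp4 level was not tested.

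Igfbp6 encodes a binding protein that prefers IGF2. It had 31 and 87 reads in immune complex and 26 and 19 reads in saline libraries, which gave 1.39 and 4.11 CPM in immune complex and 1.28 and 0.899 CPM in saline libraries. Immune complex 2 was high, and the other 3 libraries lay close together. The log2 difference of 1.33 ± 0.57 became 0.35 when immune complex replicate 2 was left out. The 6 fibroblast markers summed to 136.0 and 146.2 CPM in immune complex and 139.4 and 149.2 CPM in saline libraries. None was at 0, and the groups were apart for 2 higher and 2 lower, beside 15.4% and 14.6% of all genes. The sum hides opposite patterns. Col3a1, Dcn and Lum were highest in immune complex 2, Pdgfra and Col1a2 in saline 1 and Col1a1 in saline 2. Lum stood at 2.51 and 5.53 CPM in immune complex and 0.541 and 2.46 CPM in saline libraries, and Pdgfra at 17.1 and 18.3 CPM against 46.1 and 24.0 CPM. The mesothelium sum was lower in immune complex 2 than in both saline libraries, although its member Msln was highest there. The part of fibroblast or mesothelial RNA in the Igfbp6 level was not tested.

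Igfbp7 encodes a secreted protein of vessels and matrix with weaker affinity for IGF than the other binding proteins. It stood at 1488 and 1223 CPM in immune complex and 1697 and 1539 CPM in saline libraries. The groups were apart, and the log2 difference was -0.26 ± 0.19, with a range of -0.40 to -0.12 when single libraries were left out. Igfbp7 overlaps Polr2b and the antisense gene Gm34648 on the other strand, and whether counting used strand is not given in the sources read.

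**Figure D3:**
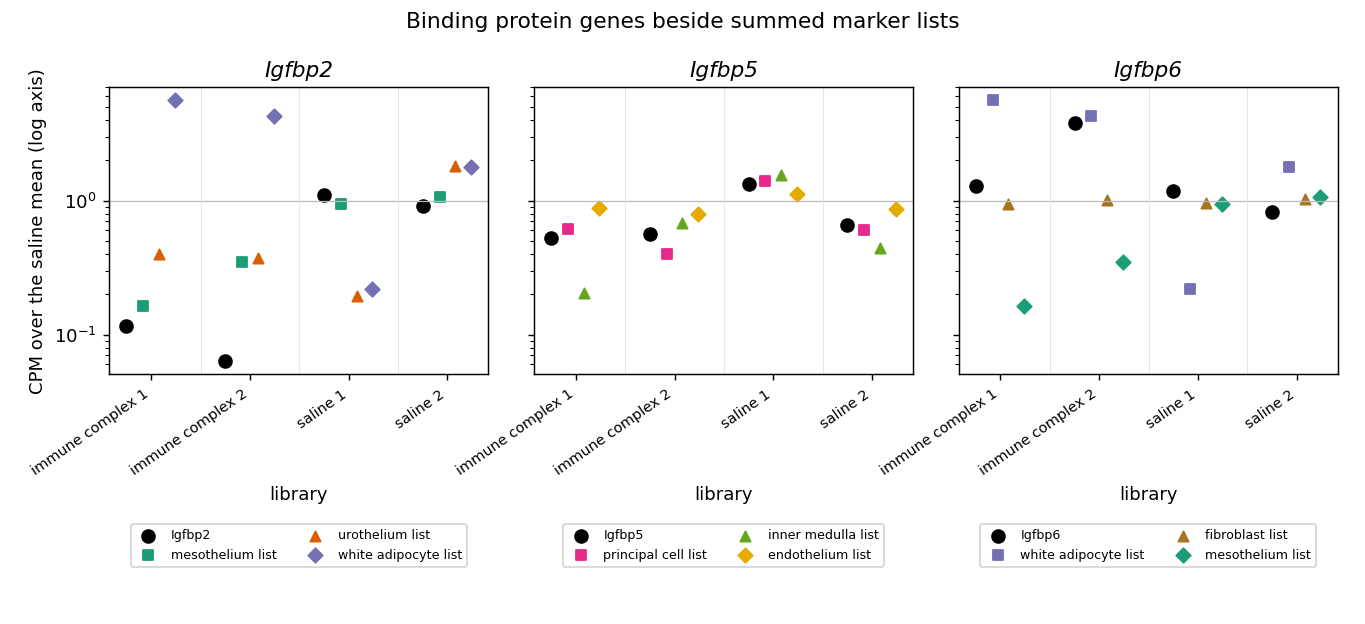
CPM of Igfbp2, Igfbp5 and Igfbp6 (black circles) and summed CPM of marker lists (coloured symbols) in each library, divided by the mean of the 2 saline libraries, on a log axis, immune complex libraries to the left of saline libraries. Igfbp2 and the mesothelium sum are low in both immune complex libraries, but of the mesothelium markers only Upk3b has both immune complex values below both saline values. Igfbp5, the principal cell list and the inner medulla list are highest in saline 1.

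Spread within a group differed between the genes. The median absolute log2 CPM difference between the libraries of a group was 0.35 for immune complex and 0.17 for saline over all tested genes. Igfbp6 differed by 1.50 between the immune complex libraries and Igfbp5 by 1.01 between the saline libraries, the widest gaps in the family. Igf1 differed by 0.18 between the immune complex libraries and by 0.04 between the saline libraries, below the median gene in both groups.

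The kind of read also varied along the family. Reads across exon junctions were 24.4% and 27.1% of Igfbp7 exon reads in immune complex and 24.0% and 24.8% in saline libraries. For Igfbp5, with 6006 exon bases, they were 2.07% and 2.14% in immune complex and 2.72% and 2.19% in saline libraries. The median over genes with at least 20 exon reads was 15.3% and 16.6% in immune complex and 17.2% and 16.3% in saline libraries. Igf2 had 0 and 1 junction reads in immune complex and 2 and 2 in saline libraries.

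Of 48 listed genes of the pathway beyond the 10, 43 were tested, and edgeR called 0 higher and 0 lower, beside 0% of all genes, with 0 at an unadjusted p under 0.05, beside 4.59%. DESeq2 and limma-voom also called 0, beside 0.544% and 0% of all genes. Fitted differences were positive for 30 and negative for 13, with a median of 0.06. Over all tested genes 51.9% were positive and the median was 0.01. Genes of a list share the same libraries, so nothing is read from their signs. They were under 0.5 in size for 95.3% of these genes, against 86.5% of all genes. The groups were apart for 15 of 43, 7 higher and 8 lower, beside 30.0% of all genes. The exceptions in size were Adam12, a protease that cuts binding proteins, at 10.3 and 7.23 CPM in immune complex and 3.00 and 6.91 CPM in saline libraries (log2 difference 0.82 ± 0.42), and Igf2bp1.

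Among other receptors, Igf2r, which clears IGF2, differed by 0.01 ± 0.17 and the insulin receptor gene Insr by 0.23 ± 0.20. Igfals, whose product completes the ternary complex with IGFBP3, stood at 28.4 and 30.9 CPM in immune complex and 32.7 and 41.0 CPM in saline libraries, a log2 difference of -0.32 ± 0.19. The protease genes Pappa and Htra1 differed by 0.26 ± 0.24 and 0.02 ± 0.18, and Stc1 and Stc2, inhibitors of PAPP-A, by -0.13 ± 0.26 and 0.03 ± 0.27. None of these passed the test.

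Of 8 tested adaptors 6 had positive differences, beside 51.9% of all genes. The docking protein genes Irs1 and Irs2 stood at 0.37 ± 0.20 and -0.16 ± 0.22. Of 16 genes of PI3K, AKT, FoxO and mTOR signalling 12 were positive (median 0.18), beside the same 51.9%. Foxo1 stood at 0.28 ± 0.17 and Akt1 at -0.24 ± 0.18. Ghr, the growth hormone receptor gene, stood at 450.9 and 1005 CPM in immune complex and 536.5 and 702.5 CPM in saline libraries. Igf2bp1, which binds Igf2 mRNA, stood at 1.08 and 1.18 CPM in immune complex and 2.41 and 1.66 CPM in saline libraries (log2 difference -0.85 ± 0.39). H19, the noncoding gene beside Igf2, had 14 and 8 reads in immune complex and 8 and 3 reads in saline libraries and was not tested, like Igfbpl1, Irs4, Igf2os and Ins2.

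**Figure D4:**
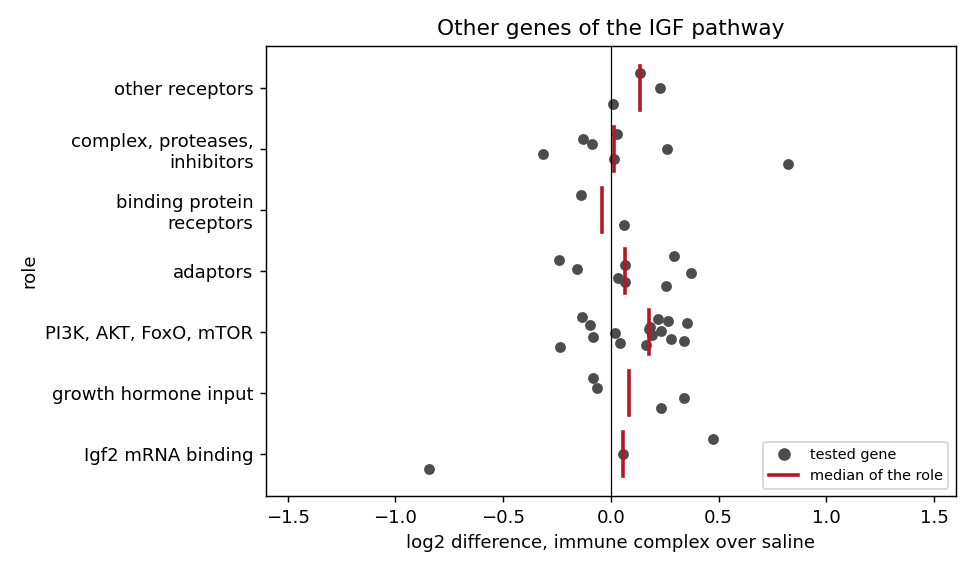
Log2 difference, immune complex over saline, of the 43 tested genes of the IGF pathway outside the 10 described (points), grouped by role, with the median of each role (red line). All points lie between -0.85 and 0.82, and no role has a median beyond 0.18.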

How the data were processed

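Kidney RNA was sequenced in 2 immune complex and 2 saline libraries. Each library has a deposited table of raw read counts per gene (total, exon, intron and exon junction reads, per the file headers) and of RPKM values that the authors computed, recovered here from exon reads, exon length and library total for 99.7% of genes. The authors' deposited table of the comparison holds, per gene, a log2 fold change, its error and both p-values, raw and adjusted. GRCm38, DESeq2 and STAR 2.5.2b are named in the submitters' processing notes. The read counter, annotation release and strand setting are not given there or in the labels.

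Total gene reads were tested by edgeR 4.0.16 under R 4.3.3, with filterByExpr, TMM scaling, the quasi-likelihood test and Benjamini-Hochberg adjustment over 16334 genes, and no replicate block. Log2 CPM profiles used a prior count of 2. Alternatives used DESeq2 1.42.0, limma 3.58.1 (voom), other scaling, no filter, exon or unique reads, a replicate block and single libraries left out. The fit was tested on simulated data, which were set with less spread between replicates than these data show. SE is the log2 difference divided by the square root of F.

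The 10 genes, the 48 pathway genes and the marker lists were chosen with earlier results of these data known. All 10 genes are described; pathway genes are named by role, and always where groups are apart with a log2 difference of at least 1 or an unadjusted p under 0.05, which 0 met. Nearest profiles were taken by Euclidean distance among genes with at least 1 CPM on average, without gene-model and pseudogene names. For all 80 genes that the authors' table calls, its fold change has the sign of saline over immune complex reads. Chi-square over degrees of freedom, on counts, was 61.2 for the immune complex pair and 18.2 for the saline pair, so neither pair agreed within sampling noise. Sequences are from RefSeq.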

Additional observations from a re-analysis of the deposited data

How the results depend on the processing

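Counts of calls depended on the tool and on single libraries. The edgeR fit called 0 genes in either direction. DESeq2 called 36 higher and 57 lower, including 1 of the 10 IGF axis genes. Without a filter on low counts there were 2 lower, and with unique reads 1 lower, and none of these was among the 10. With single libraries left out, genes called higher ranged from 0 to 123, genes called lower from 0 to 156, and calls among the 10 from 0 to 2. The library left alone in its group is then assumed to vary like the others. With the replicate number as a block there were 27 higher and 28 lower and 1 of the 10, Igfbp2. The labels do not say that numbers pair samples, and deviations of same-numbered libraries correlated at -0.13. Numbers crossed between groups, chosen after seeing the data, gave 72 higher, 88 lower and 1 of the 10. The cause of these changes was not tested. The pathway list had 0 calls under every setting listed here, also under exon reads, limma-voom and size-factor scaling.

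Of the recomputed log2 differences of the 10 genes, 114 moved by less than the spread between replicates and 6 by more. The 6 larger moves all came with a library left out. They were Igf1, Igf2, Igfbp2 and Igfbp4 without immune complex replicate 1, Igfbp5 without saline replicate 1 and Igfbp6 without immune complex replicate 2. By arithmetic, leaving out a library shifts a difference by a part of its gap to the other library of its group. The spread used here pools both groups, so such a shift can exceed it. The other settings reuse the same libraries, so this tally is not evidence of stability. Signs turned, with single libraries left out, for Igfbp3 and Igfbp4, and under exon reads for Igfbp3 (0.01). Binding protein shares from exon reads per exon length are the same quantity as the RPKM shares and show nothing on stability. Few reads limit Igf2, Igfbp2 and Igfbp6.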
